A study of Mus musculus with 12 samples.

Results

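Neutrophil granule genes were followed in mouse mast cells grown from bone marrow. The 10 genes were myeloperoxidase (Mpo), neutrophil elastase (Elane), proteinase 3 (Prtn3), Ms4a3, lactotransferrin (Ltf), lipocalin 2 (Lcn2), cathelicidin (Camp), neutrophilic granule protein (Ngp) and the calgranulins S100a8 and S100a9. Every probe set whose annotated symbol was exactly one of these names was taken. There were 10 such probe sets, 1 per gene, all on chip A, out of 22626 probe sets there, and 0 on chip B, out of 22511. They stand for 10 of the 18193 genes that either chip names by a single symbol. The mature mast cells were 3 cultures kept for 57 to 110 days, M2 and M4 labelled male and M6 labelled female. The mast cell precursors were 3 cultures kept for 14 to 16 days, M1 labelled female and M3 and M5 labelled male. The day of each single culture, the strain and the genotype are not in the labels. All 6 cultures grew in RPMI medium with interleukin-3, a cytokine that supports mast cells and their myeloid relatives. Purity was put at about 80%, and the labels mention marrow stroma, monocytes and macrophages as cells that may be mixed in. RNA from a culture was hybridised to 2 Affymetrix arrays, MOE430A (called chip A here) and MOE430B (chip B), which makes 12 arrays.

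Neutrophils carry their antimicrobial proteins in granules that are filled one kind after another while the cell matures in the bone marrow. Primary (azurophil) granules, with myeloperoxidase and the elastase-like serine proteases, are made at the promyelocyte stage. Secondary (specific) granules, with lactotransferrin, cathelicidin and lipocalin 2, follow at the myelocyte stage, and the calgranulins accumulate in the cytosol of late stages. C/EBP and PU.1 transcription factors are known to drive these genes. Mast cells come from the same marrow progenitors but store other cargo, such as histamine, heparin and their own proteases.

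The median signal per array was 534 to 692 on chip A. Of 12 mast cell markers, Kit, the stem cell factor receptor, was at 37208, 41506 and 47932 in mature cultures M2, M4 and M6, against 35047, 38961 and 27352 in precursor cultures M1, M3 and M5. Mcpt4, a protease of connective tissue mast cells, was dim in most, at 300.4, 162 and 67.5 in the mature cultures, against 284, 276 and 1159 in M1, M3 and M5. Xist, expressed from the inactive X chromosome of females, was high in M6 (43301) and M1 (37969) and at 926 or less in the other 4 cultures on one of its probe sets, as the sex labels have it. Nothing in the labels says that the cultures came from different animals, so p-values measure the spread between these cultures, and the number of arrays limits the precision. Signals below 247, the 30th percentile of the chip A table, have no order here. They were set to that floor before log2 values were taken, so differences and folds in log2 values are on the floored scale.

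Every one of the 10 genes had its highest signal in precursor culture M5, its second highest in precursor culture M1, and its lowest precursor signal in M3. In M3 the 10 genes differed from the mature mean by a median of -0.22 on the floored log2 scale, and by at most -0.64 (Ltf). For Prtn3, Lcn2, Camp, S100a8 and S100a9, M3 and at least 2 mature cultures were at the floor. A difference between M3 and the mature mean could hardly show in these genes. The granule genes were thus higher in 2 precursor cultures out of 3 than in the other 4 cultures. In bulk RNA, fewer cells of a type and less RNA per cell cannot be told apart.

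Among the primary granule genes, Mpo makes hypochlorous acid from hydrogen peroxide in the phagosome. Its signal was 834, 670.4 and 938 in mature cultures M2, M4 and M6, against 18908.5, 614 and 39343 in precursor cultures M1, M3 and M5. M3 lay below all 3 mature cultures, and M1 and M5 lay far above them, so the groups overlapped. On the log2 scale Mpo averaged 9.66 ± 0.25 in mature and 12.91 ± 3.20 in precursor cultures (SD, n = 3 each). Prtn3, a serine protease of the same granule, had 92.2, 65.5 and 120.0 in M2, M4 and M6, against 7047, 20.6 and 19285 in M1, M3 and M5. It was below the floor in all 3 mature cultures and in M3. Elane, the elastase, had 523, 1046 and 1073 in the mature cultures, against 2629, 720.0 and 4904 in M1, M3 and M5. Here M3 lay inside the mature values, and the distance of M1 and M5 from the rest was the smallest of the 10 genes.

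Prtn3 and Elane are neighbours on chromosome 10 with 3137 bases and 0 annotated genes between them, and Mpo lies on chromosome 11 (RefSeq annotation of GRCm38.p6, from which all positions here are taken; the build behind the arrays' annotation is not given in the sources used here). The 250 bases before the start site of each are shown because the 3 genes moved together across cultures and each window holds the PU.1-like motif GAGGAA or its reverse complement, written in capitals. Prtn3 is shown from chr10:79879417-79879666, Elane from chr10:79886062-79886311 and Mpo from chr11:87793534-87793783, all on the plus strand.
Prtn3: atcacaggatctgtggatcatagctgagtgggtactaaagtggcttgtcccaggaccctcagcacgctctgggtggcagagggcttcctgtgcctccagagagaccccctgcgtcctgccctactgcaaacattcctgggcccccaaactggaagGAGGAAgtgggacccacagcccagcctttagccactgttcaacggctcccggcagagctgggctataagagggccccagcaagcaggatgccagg
Elane: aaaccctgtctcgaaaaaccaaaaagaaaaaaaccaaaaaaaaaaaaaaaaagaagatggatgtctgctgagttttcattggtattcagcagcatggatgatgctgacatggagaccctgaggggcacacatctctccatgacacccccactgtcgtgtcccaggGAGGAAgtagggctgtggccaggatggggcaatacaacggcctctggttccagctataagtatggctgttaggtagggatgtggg
Mpo: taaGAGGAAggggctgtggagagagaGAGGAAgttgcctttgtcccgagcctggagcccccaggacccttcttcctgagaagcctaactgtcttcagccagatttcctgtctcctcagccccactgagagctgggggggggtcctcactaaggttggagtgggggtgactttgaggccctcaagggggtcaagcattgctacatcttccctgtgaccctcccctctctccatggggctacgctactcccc
Counted back from the start site, the motif begins at -95 in Prtn3, at -85 in Elane and at -247 and -224 in Mpo. In RefSeq promoter windows of 250 bases before and 50 after the start, GAGGAA on either strand was found in 7 of the 10 genes, beside 28.3% of all 32851 windows. A match describes the letters and is not a site bound by a factor.

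Ms4a3, a four-pass membrane protein of granulocyte and monocyte progenitors, behaved like the primary granule genes. Its signal was 1145, 1439.5 and 1553 in M2, M4 and M6, against 5398, 1197 and 12279 in M1, M3 and M5. M3 lay inside the mature values. Ms4a3 and Mpo were the only genes of the 10 above the chip's median signal of 582 in all 6 cultures.

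Among the secondary granule genes, Ngp, a cathelicidin-like protein of mouse neutrophils, had 566, 689.9 and 918 in M2, M4 and M6, against 29861, 601 and 60669.5 in M1, M3 and M5. M3 lay inside the mature values. On the log2 scale Ngp averaged 9.47 ± 0.35 in mature and 13.33 ± 3.59 in precursor cultures (SD, n = 3 each). Ltf, which binds iron, had 107, 790.2 and 356 in the mature cultures, against 3519, 265 and 8941 in M1, M3 and M5. It was the only one of the 10 with its highest mature signal in M4, since M6 was the highest mature culture for the other 9. Camp, the precursor of the antimicrobial cathelicidin peptide, had 38.0, 127 and 385 in the mature cultures, against 2122, 59.1 and 5309 in M1, M3 and M5. Lcn2, which binds the siderophores by which bacteria take up iron, had 33.3, 26.8 and 278 in the mature cultures, against 3705, 16.0 and 13147 in M1, M3 and M5. M3 was below the floor for Camp and Lcn2, as were M2 and M4, while M6 was just above it for both.

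Ngp, Camp and Ltf all lie on chromosome 9 but are not next to each other, with 18 annotated genes between Camp and Ngp and 25 between Ngp and Ltf. The upstream windows of Ngp and Ltf are shown because they hold the C/EBP-like motif TTNNGCAA, a motif that no upstream window of the elastase-like pair held. Ngp is shown from chr9:110419558-110419807 and Ltf from chr9:111019042-111019291, both on the plus strand. Capitals mark the C/EBP-like motif on either strand and, in Ltf, also the reverse complement of the PU.1-like motif at -157.
Ngp: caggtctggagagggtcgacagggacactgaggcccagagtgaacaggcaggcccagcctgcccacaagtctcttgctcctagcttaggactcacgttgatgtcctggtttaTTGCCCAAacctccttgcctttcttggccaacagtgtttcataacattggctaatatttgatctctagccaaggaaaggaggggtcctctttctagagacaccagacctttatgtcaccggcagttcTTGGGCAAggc
Ltf: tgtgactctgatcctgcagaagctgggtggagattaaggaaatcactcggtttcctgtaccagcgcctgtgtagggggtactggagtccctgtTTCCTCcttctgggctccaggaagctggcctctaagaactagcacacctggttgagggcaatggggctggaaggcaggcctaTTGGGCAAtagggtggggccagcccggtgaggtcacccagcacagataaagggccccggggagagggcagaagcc
The C/EBP-like motif begins at -138 and -11 in Ngp and at -75 in Ltf. It was found in 5 of the 10 genes' 300-base windows (Ngp, Ltf, Lcn2, Ms4a3 and S100a9), beside 10.8% of all windows. The Myb-like motif AACTG was found in 6 of the 10, beside 44.8% of all windows. The 3 motifs do not overlap one another in the printed windows.

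The calgranulins S100a8 and S100a9 form the calcium-binding heterodimer calprotectin. S100a8 had 33.9, 32.6 and 179.6 in M2, M4 and M6, against 31725, 16.4 and 58932 in M1, M3 and M5. It was below the floor in all 3 mature cultures and in M3, and 2 cultures alone gave it signal. Its probe set is of a kind (suffix s) that can match more than 1 transcript. S100a9 had 141, 177 and 458 in the mature cultures, against 11654, 227 and 31391 in M1, M3 and M5. M3 was below the floor, as were M2 and M4. The genes are neighbours on chromosome 3 with 22595 bases and 0 annotated genes between them.

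**Figure D1:**
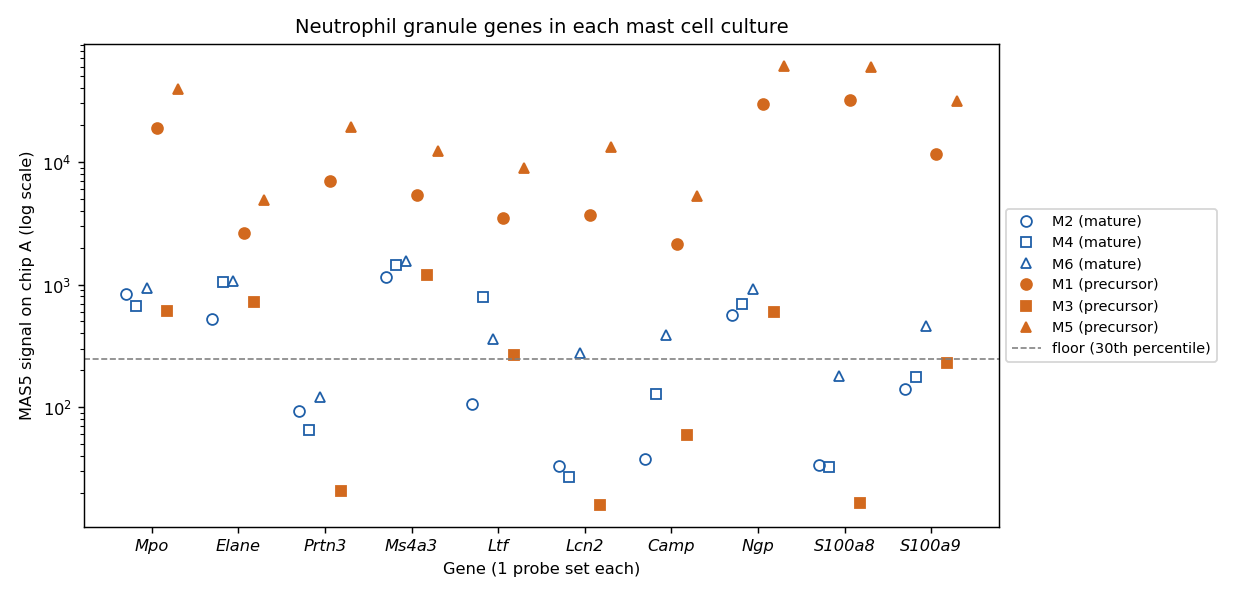
MAS5 signal of each of the 10 neutrophil granule genes (chip A, log scale), with 1 point per culture: mature cultures as open blue symbols on the left and precursor cultures as filled orange symbols on the right of each gene, and the floor of 247 as a dashed line. M5 (filled triangles) and M1 (filled circles) stand above all other cultures for all 10 genes, while M3 (filled squares) lies with the mature cultures.

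The comparison of mature with precursor cultures asked how expression changes as mast cell cultures age. All 10 genes had a lower log2 mean in the mature cultures, by a median log2 difference of -3.21, where the median over all 11576 tested chip A sets was 0.02. Of the 10 genes, 5 passed the filter on dim probe sets (at least 3 of 6 arrays above 582) and were tested, namely Mpo, Elane, Ms4a3, Ltf and Ngp. None of the 5 passed limma at a Benjamini-Hochberg adjusted p under 0.05, where 0.527% of tested sets passed in either direction. All 5 had an unadjusted limma p under 0.05, as 6.59% of tested sets did. The log2 difference, mature minus precursor, was -3.86 ± 1.29 for Ngp (SE from limma, adjusted p = 0.444) and -3.25 ± 1.16 for Mpo (adjusted p = 0.51). It was -2.30 ± 1.01 for Ltf (adjusted p = 0.729), -1.65 ± 0.65 for Ms4a3 (adjusted p = 0.628) and -1.33 ± 0.59 for Elane (adjusted p = 0.739). The other 5 could not pass the filter, since only M1 and M5 lay above the chip's median, and their differences on the floored scale were -4.97 for S100a8, -3.89 for S100a9, -3.71 for Prtn3, -3.16 for Lcn2 and -2.30 for Camp. The groups overlapped in all 10 genes, where 6.06% of tested sets had every mature culture below every precursor culture.

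Culture M3 decided these calls. Without it, limma called 4 of the 5 tested genes lower in mature cultures: Ngp at -5.90 (adjusted p = 0.000163), Mpo at -5.08 (adjusted p = 0.000344), Ltf at -3.77 (adjusted p = 0.0163) and Ms4a3 at -2.57 (adjusted p = 0.0171), with Elane at -2.10 (adjusted p = 0.0781). In that fit 59 of the 11576 tested chip A sets were called in either direction. M3 was the lowest precursor culture for all 10 genes, so leaving it out kept the 2 high cultures and removed most of the precursor spread. The adjusted p-values without M3 thus describe 2 precursor cultures already seen to be high. Over all settings tried, adjusted p ran up to 1 for each of the 5. Without M5 the median difference of the 10 genes was -1.99, and without M1 it was -2.71. Leaving out any mature culture called none of the 5 tested genes.

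**Figure D2:**
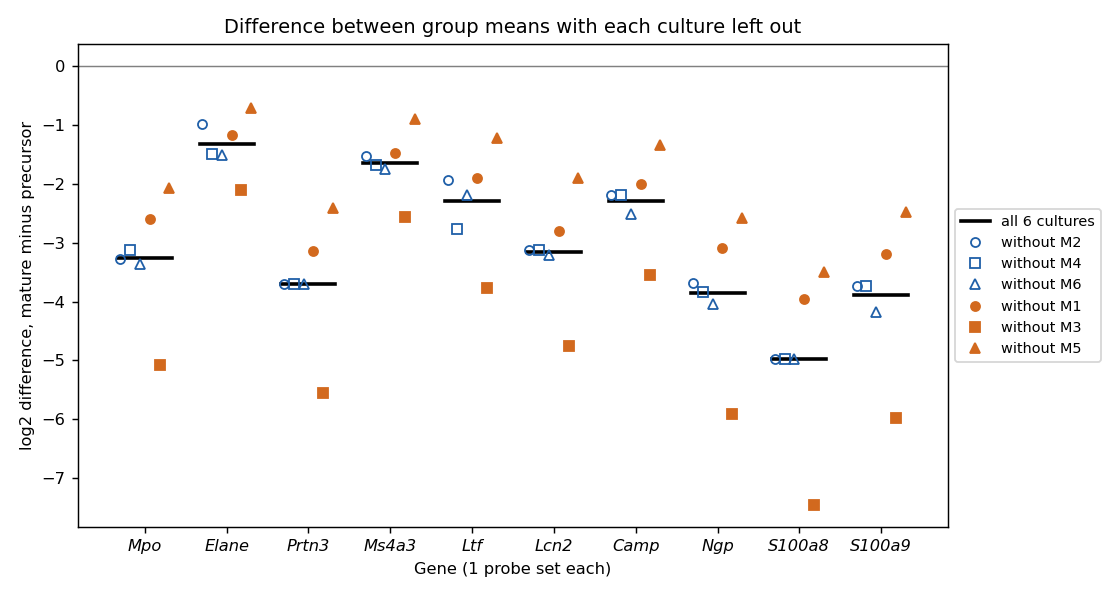
Log2 difference, mature minus precursor, for each gene with all 6 cultures (black line) and with 1 culture left out (points, open for mature and filled for precursor). Every point is below 0, and leaving out M3 gave the most negative difference for each gene, reaching -7.45 for S100a8.

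The 10 genes spread widely among the precursor cultures. The ratio of the highest to the lowest precursor signal had a median of 58.4-fold over the 10 genes (log2 5.87), where the median over all tested sets was 1.52-fold (log2 0.60). For Prtn3, Lcn2, Camp, S100a8 and S100a9 the lowest value was the floor, so their ranges are lower bounds. The 5 tested genes alone had a median precursor range of log2 5.08. Among the mature cultures these 5 ranged over a median log2 of 0.70, where all tested sets had 0.65. Of these 5, Ltf had M2 at the floor, so its mature range of log2 1.68 is a lower bound. The mature range of the other 5 was not read, since at least 2 of 3 mature cultures were at the floor. By floored precursor range, 6 of the 10 genes were among the 10 widest of 22626 chip A sets and 8 among the 20 widest, and with no floor 4 and 7 were. The order among the genes changed with the floor, but S100a8 ranked 1 either way. The ranks of Ms4a3 and Elane were 37 and 78 with the floor and 729 and 1565 without it. The 2 Xist probe sets, which separate the sexes, were among the 10 widest with the floor. Without M3 the median precursor range of the 10 genes was log2 1.25. With 3 cultures a group the spread was described and not tested.

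**Figure D3:**
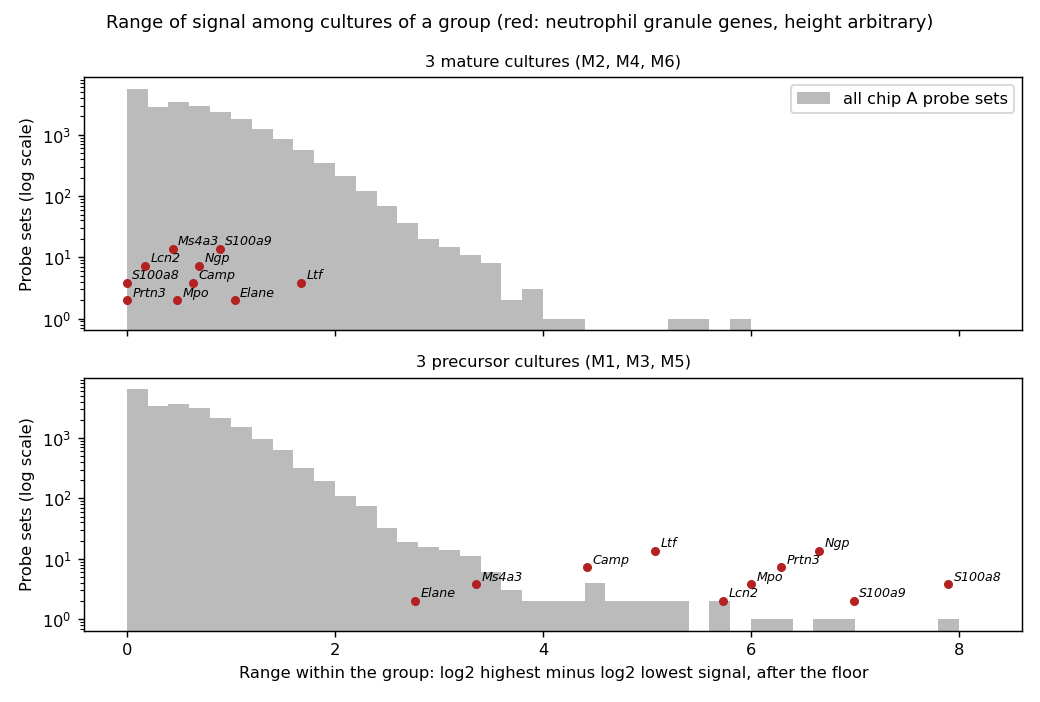
Range of floored log2 signal (highest minus lowest) among the 3 mature cultures (top) and the 3 precursor cultures (bottom) for all chip A probe sets (grey, counts on a log scale), with the 10 genes as red points at arbitrary heights. The 10 genes lie at 0 to 1.68 in the mature panel and at 2.77 to 7.90 in the precursor panel, where values with a culture at the floor are lower bounds.

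Each precursor culture was read on 1 array per chip, so contrasts among them have no replicate and no test. M5 over M3 was 6.81-fold for Elane, 10.3-fold for Ms4a3, 33.8-fold for Ltf, 64.1-fold for Mpo and 101-fold for Ngp. It was at least 21.5-fold for Camp, 53.2-fold for Lcn2, 78.1-fold for Prtn3, 127-fold for S100a9 and 239-fold for S100a8, lower bounds because M3 was at the floor. M1 over M3 had a median of 20.7-fold, from 3.65-fold for Elane to at least 128-fold for S100a8. M5 over M1 stayed in a narrow band for all 10 genes, from 1.86-fold for S100a8 to 3.55-fold for Lcn2, with a median of 2.39-fold. M1 and M5 differed in log2 by a median of -0.04 (M5 minus M1) over all tested sets.

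The order M5, M1 and then the other 4 cultures was found in 447 tested chip A sets (3.86%). M1 and M5 were both at least 8-fold above M3 in 14 chip A sets (0.0619%), and 8 of these were the granule genes other than Elane and Ms4a3. At 4-fold there were 53 such sets, 9 of them granule genes, and 16 sets in which M3 was 4-fold above both. Across the whole array M3 did not stand apart: log2 signals of tested sets correlated at 0.922 between M1 and M3, 0.914 between M1 and M5 and 0.916 between M3 and M5, all from the same processing. The high cultures were of either labelled sex, M1 female and M5 male, while M3 was male. M3 and M5 shared the fluidics station (2, where M1 was on 1) and the RNA concentration (1.5 µg/µl, where M1 had 2.0). With sex as a block the adjusted p of the 5 tested genes was 0.367 to 0.595, and with station as a block 0.519 to 0.889.

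Not all genes of neutrophil granules followed this pattern. Of 19 other listed granule protein genes 17 had a probe set and 10 were tested. In limma 5 fell in mature cultures, 0 rose and 5 did not pass. The median difference over the 17 was -1.40, where all tested sets had 0.02. The 3 largest called falls were in Chil3, Lyz1 and Ctsg. Chil3, a chitinase-like lectin, had 137, 204 and 60.1 in M2, M4 and M6, against 23413, 56623 and 46428 in M1, M3 and M5 (log2 -7.32 ± 0.32, adjusted p = 2.44e-06). Lyz1, a lysozyme, had 1971, 9109.6 and 1068 in the mature cultures, against 87406, 91070.3 and 100421 in M1, M3 and M5 (log2 -5.12 ± 0.60, adjusted p = 0.00464). Ctsg, cathepsin G, a serine protease of primary granules and of mast cells, had 216, 895 and 1396 in the mature cultures, against 12376, 23765 and 33816 in M1, M3 and M5 (log2 -4.99 ± 0.57, adjusted p = 0.00464). For these 3 genes M3 was high like M1 and M5, whereas Mpo, Prtn3 and Ngp were low in M3. Lyz2 and Slpi, a protease inhibitor, were the other 2 that fell, and both were bright in all 3 precursor cultures. Lyz1 was read on 1 of its 3 probe sets, of a kind (suffix x) that can match related transcripts. Whether its signal is separate from that of Lyz2 was not tested. With each culture left out in turn, Chil3, Lyz1, Lyz2 and Ctsg passed every time, while Slpi did not pass without M1, M2, M3 or M5. Chil3, the lysozymes and Slpi are also made by macrophages.

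Other genes of that list, named after their values were seen, had the order of the 10 genes. Hp (haptoglobin) had 24.3, 21.6 and 45.5 in the mature cultures, against 4635, 31.8 and 8953 in M1, M3 and M5. Pglyrp1, which binds bacterial peptidoglycan, had 72.4, 53.6 and 70.2 in the mature cultures, against 2489, 57.2 and 2755 in M1, M3 and M5. On chip B, a separate hybridisation of the same RNA on which 0.0926% of tested sets passed limma, Olfm4 had 92.4, 513 and 173 in the mature cultures, against 1469, 135 and 2295 in M1, M3 and M5. Fcnb, a ficolin, had 1804, 1901 and 2218 on chip B in the mature cultures, against 3190.1, 1197 and 5166 in M1, M3 and M5. Both chip B genes had M5 highest, M1 second and M3 lowest among the precursors. The share of all chip B sets with that order was not counted. Of the 17 genes, 8 were at least 2-fold higher in both M1 and M5 than in M3, and 0 were 2-fold higher in M3 than in both.

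Genes that process, pack and inhibit granule proteases mostly lacked the pattern. On the floored scale 0 of the 12 with a set (of 14 listed) were 2-fold higher in both M1 and M5 than in M3. Of these 9 were tested and 0 passed limma. The median difference was 0.24 over the 9 tested and 0.07 over all 12. The brightest were Srgn, the serglycin core to which granule proteases bind, and Serpinb1a, an inhibitor of elastase. Srgn had 72990.0, 66769 and 73359 in the mature cultures, against 49346, 74043 and 73393 in M1, M3 and M5. Serpinb1a had 43918, 42696 and 39174 in the mature cultures, against 53592, 42079 and 38599 in M1, M3 and M5. Both were bright in all 6 cultures. Stfa3, named after its values were seen, had 144, 30.6 and 44.2 in the mature cultures, against 344, 62.7 and 995 in M1, M3 and M5. It thus had the order of the 10 genes, and its M1 over M3 of 1.39-fold is a lower bound because M3 was below the floor. Ctsc and Tlr4 also had M5 highest, M1 second and M3 lowest among the precursors, with M1 over M3 at 1.40-fold and 1.25-fold. Ctsc hardly differed between M5 (40697) and M1 (40534). M3 was the lowest precursor culture in 29.1% of all tested chip A sets.

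Of 14 listed granulocyte transcription factors 13 had a set, 11 were tested and 0 passed limma. The median difference was -0.15 over the 11 tested and -0.43 over all 13. The brightest were Egr1 (log2 2.00 ± 0.44, adjusted p = 0.102) and Cbfb (log2 -0.06 ± 0.24, adjusted p = 0.981). Cebpa, which starts the granulocyte programme, had 327, 572 and 638 in the mature cultures, against 1276, 132 and 1128 in M1, M3 and M5. It was the only one of the 13 at least 4-fold higher in both M1 and M5 than in M3, and its level in the mature cultures lay between. Spi1, which encodes PU.1, had 1921, 1565 and 2006 in the mature cultures, against 2182, 2416 and 2823 in M1, M3 and M5, and did not share the dip in M3. Cebpa and Spi1 were named after their values were seen.

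Of 18 listed neutrophil surface and effector genes 14 had a set and 10 were tested. Itgb2, the beta 2 integrin chain, and Anxa1, annexin A1, fell (log2 -2.0 and -2.94, adjusted p = 0.0134 and 0.0173), 0 rose and 8 did not pass. Neither passed without M1 or without M5, and Anxa1 also not without M2 or without M6. The median difference over the 14 was -0.53. Il1r2, the decoy receptor for interleukin-1, was the only one 4-fold higher in both M1 and M5 than in M3, with 979, 718 and 2704 in the mature cultures and 1460.5, 123 and 5692 in M1, M3 and M5. Csf3r, the receptor for granulocyte colony-stimulating factor, had 581, 1205 and 1496 in the mature cultures, against 654, 542 and 1509 in M1, M3 and M5. Its levels overlapped between the groups. Il1r2 and Csf3r were named after their values were seen.

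Markers of other myeloid cells were set beside the 10 genes. The signals of 10 granule genes summed to 3514, 5065 and 6258 in mature cultures M2, M4 and M6, against 116568, 3735 and 254200 in precursor cultures M1, M3 and M5. The 6 eosinophil markers with a set (of 10 listed) summed to 809, 918 and 1513 in the mature cultures, against 4176, 1029 and 13948 in M1, M3 and M5. Prg2, the eosinophil major basic protein, had 273, 159 and 62.1 in the mature cultures, against 1809, 47.9 and 9631 in M1, M3 and M5. Epx, eosinophil peroxidase, had 303, 199 and 698 in the mature cultures, against 1085, 220.2 and 3126 in M1, M3 and M5. These 2 genes, and Prg3, had the order of the 10 genes among the precursor cultures. Il5ra, the interleukin-5 receptor, did not, with 88.1, 299 and 129 in the mature cultures, against 369.8, 405 and 41.1 in M1, M3 and M5. Ccr3, the eotaxin receptor, had 87.5, 117 and 493 in the mature cultures, against 290.4, 126 and 51.5 in M1, M3 and M5. M5 was thus below the floor for both receptors, and Siglecf was below the floor in all 6 cultures. Of this list only Epx was tested, and it did not pass (log2 -1.33 ± 0.79, adjusted p = 0.808).

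The 7 basophil markers with a set (of 8 listed) were all tested and 0 passed, with a median difference of -0.44. They summed to 36132, 23042 and 17006 in the mature cultures, against 72859, 31487 and 59879.5 in M1, M3 and M5. These sums mix the 2 chips, since Cd200r3 and Cd69 were read on chip B and the others on chip A. Mcpt8, a protease of basophils, had 1723, 1925 and 125 in the mature cultures, against 41656, 1502 and 24177 in M1, M3 and M5. It was low in M3 like the granule genes, but M1 exceeded M5. It alone of the 7 passed limma without M3 (adjusted p = 0.0189, 0.351 with all cultures). Cd200r3, the other of the 2 brightest, had 11751, 6184 and 6401 on chip B in the mature cultures, against 15546, 16068 and 17772 in M1, M3 and M5, with no dip in M3.

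Monocyte and macrophage markers had mixed patterns. Of 18 listed genes 15 had a set and 11 were tested, of which 6 fell in mature cultures, 0 rose and 5 did not pass. They summed to 7685, 10451 and 9371 in the mature cultures, against 42659.7, 58696 and 72455 in M1, M3 and M5. Ctss alone made up 34132 of the sum in M3, against 9277 in M1 and 17283 in M5. The order of M1 and M3 in these sums thus rests on that gene. No gene of this list was 4-fold higher in both M1 and M5 than in M3, and Marco was below the floor in all 6 cultures. At 2-fold there was 1, Csf1r, with 12976, 6402 and 24274 in M1, M3 and M5, and 0 were 2-fold higher in M3 than in both. Csf1r, Ccr2, Msr1, Cd14 and Cd68 had the order of the 10 genes among the precursor cultures, while Ctss, Clec7a and C1qc were highest in M3. In Cd68, M1 and M3 were close, at 1550 and 1495. These orders were read after the values were seen. The share of all sets with that order among the 3 precursor cultures was not counted. The 3 largest called falls were in Ctss (log2 -4.68), Mpeg1 (-3.34) and Csf1r (-3.06), with limma adjusted p of 0.0148, 0.0134 and 0.00901. Ctss, cathepsin S, had 219, 2217 and 589.5 in the mature cultures, against 9277, 34132 and 17283 in M1, M3 and M5, with its highest value in M3. Called falls numbered 1 (Csf1r) without M5, 3 (Csf1r, Mpeg1 and Ctss) without M2 or without M4, 4 without M1 or without M6, and 5 without M3.

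The 12 mast cell markers summed to 602812, 478111 and 847240 in the mature cultures, against 533414, 586522 and 481902 in M1, M3 and M5. Of the 11 tested, Hdc, which makes histamine, fell (log2 -2.62, adjusted p = 0.0134), though not without M2 or without M5, while 0 rose and 10 did not pass. M5 had the lowest precursor signal in 8 of the 12, M3 in 3 and M1 in 1. M5 was also most often the lowest precursor culture over all tested chip A sets. It was lowest in 38.9% of them, M3 in 29.1% and M1 in 31.98%. Kit was lowest in M5. Of 11 stromal markers, all with a set, 5 were tested and Igfbp4 fell (log2 -2.09, adjusted p = 0.0211), and did not pass when any culture other than M1 or M4 was left out. The 11 summed to 13764, 19469.5 and 13336 in the mature cultures, against 39456, 39497 and 57206 in M1, M3 and M5. These sums rest mostly on Vim and Igfbp4, at 30477 and 18576.5 in M5. The median log2 difference over the 11 was -0.16, and Sparc was below the floor in all 6 cultures. The part of other cell types in the values of the 10 genes was not tested.

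**Figure D4:**
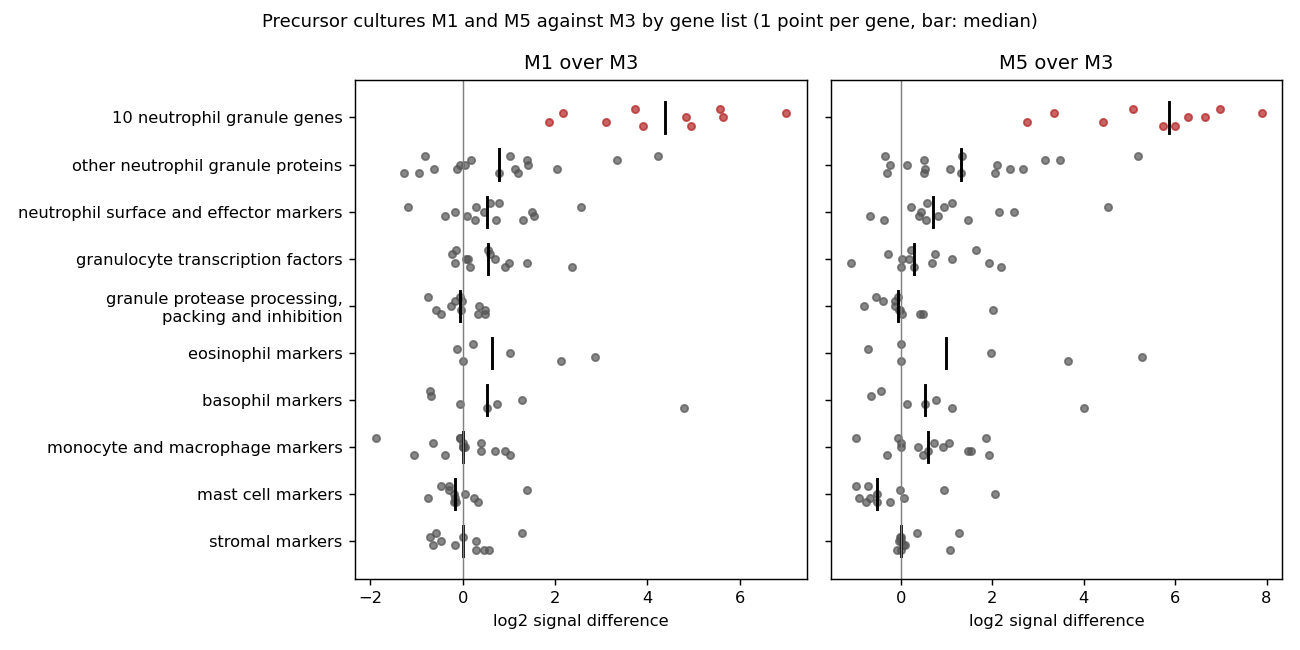
Log2 signal difference of precursor culture M1 over M3 (left) and M5 over M3 (right), with 1 point per gene and a bar at the median of each list. The 10 granule genes (red) have medians of 4.37 and 5.87, while the monocyte and macrophage markers have 0.00 and 0.59 and the mast cell markers -0.17 and -0.51.

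The genes most like the mean profile of the 10, by Pearson correlation of log2 signal over the 6 chip A arrays among 2970 tested candidate sets, were Ptgr1 (0.978), Ms4a6d (0.971), Mmp9 (0.971), Trem3 (0.958), Ckap4 (0.956), Plac8 (0.951), Pgd (0.936) and Pf4 (0.935). The points are the same 6 arrays, of which 2 are high, so these values only describe who shares the high pair. Plac8, a protein of myeloid progenitors, had 1697, 4829 and 2575 in the mature cultures, against 15400.0, 1257 and 33920.3 in M1, M3 and M5. Mmp9, the gelatinase of tertiary granules, had a much smaller range, with 552, 739 and 561 in the mature cultures, against 1189.6, 580.4 and 1461 in M1, M3 and M5. Pf4, platelet factor 4, differed in order from the 10 genes, since M1 exceeded M5.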

How the data were processed

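Total RNA of 6 cultures was read on 12 arrays. The deposited values are intensities per probe set on a linear scale, made by the authors with MAS5 per the submitters' processing notes, with version and settings not given in the sources used here. The deposited instrument records (unit: other) gave only the fluidics station, lot and scan day of an array. Each chip had 1 lot and 1 scan day. Probe sets were named by GEO's platform annotation: on chip A 20380 had 1 symbol, 691 several and 1555 none.

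Each chip had its own floor, filter and fit. Signals under a floor at the 30th percentile (247 for chip A, 359 for chip B) were raised to it, log2 values taken, control sets (64 a chip) left out, and sets kept with at least 3 of 6 arrays above the median (582 and 864). This left 11576 and 11880 sets. Mature minus precursor was fitted with limma 3.58.1 in R 4.3.3 (lmFit, eBayes with an intensity trend, two-sided), with Benjamini-Hochberg adjustment within a chip, and the fit was tested on simulated data. Context genes were read on their brightest probe set, chip A first. Up to 3 called rises and 3 called falls per list were named, or the 2 brightest genes where none passed. Promoter windows are RefSeq's. The alternatives were other scalings, floors, filters and fits, sex or station as a block, and each culture left out. The members, lists and tests were chosen with earlier results of these data known.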

Additional observations from a re-analysis of the deposited data

How the results depend on the processing

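No gene among the 10 changed the direction of its mean difference under any of the 19 alternatives. The 5 tested genes had an adjusted p in all 95 of theirs and were not called in 91. The other 5 genes had one in 25 and were called in 1. The calls all left out M3: 4 of the 5 tested genes were then called, and 1 gene (S100a8, -7.45, adjusted p = 0.032, over its alternatives 0.032 to 1) with M3 left out and no filter, an alternative chosen after seeing the data. Over all chip A sets, 59 of 11576 were called without M3, and 26 of 22626 without M3 and with no filter. Leaving out 1 culture gave 0 to 4 called genes, and with no filter or a filter on the mean (sets with a mean signal above the 60th percentile), all 10 were tested and 0 passed limma. The median precursor range (log2 5.87) was 1.25 without M3, and 1.25 to 5.87 over cultures left out. The median difference was -3.56 with no floor and -2.64 with a floor at the 50th percentile.

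Over all sets, the chip A count of 61 was 1 with no filter and 21 (without M5), 25 (without M2) or up to 59 with 1 culture left out. The chip B count of 11 was 17 with the higher floor, 4 with no floor, 0 in limma with no filter (1227 sets at an unadjusted p under 0.05), 6 with the filter on the mean, 3 with no intensity trend, 7 with array weights, 17 with sex as a block and 3 to 11 with 1 culture left out. No paired analysis was possible because the groups share no replicate numbers. Values below the floor have no order, which limits every fold for Prtn3, Lcn2, Camp, S100a8 and S100a9. Without a day per culture, the age of M3 within 14 to 16 days cannot be set beside its values.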

Other observations

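Culture M3 also had genes of its own, named here after their values were seen. Of all chip A sets, 5 were at least 8-fold higher in M3 than in both M1 and M5. Fscn1, an actin-bundling protein of dendritic cells, had 7.98, 14.3 and 17.0 in mature cultures M2, M4 and M6, against 75.1, 5446 and 631 in precursor cultures M1, M3 and M5. Ccl22, a chemokine of macrophages and dendritic cells, had 25.7, 20.9 and 69.8 in the mature cultures, against 25.7, 4576 and 467 in M1, M3 and M5. Mmp12, the macrophage elastase, had 60.7, 64.3 and 777 in the mature cultures, against 66.2, 4093 and 272 in M1, M3 and M5. Rnase2a, a ribonuclease, had 201, 70.3 and 311 in the mature cultures, against 226, 3918 and 37.9 in M1, M3 and M5. Sox7, a transcription factor, had 627, 509 and 310.5 in the mature cultures, against 256, 2135 and 75.1 in M1, M3 and M5. With 1 array per culture these differences have no test.

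In the opposite direction 6 sets besides the granule genes were at least 8-fold higher in both M1 and M5 than in M3, namely those of Hp, Mcpt8, Pf4, Pglyrp1, Plac8 and Wfdc21. Wfdc21, a whey acidic protein family member, had 50.7, 396 and 76.4 in the mature cultures, against 3598, 151 and 7086 in M1, M3 and M5. It had the same order among the precursor cultures as the 10 granule genes.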
